A study of Arabidopsis thaliana with 24 samples.

Results

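Roots treated with abscisic acid (ABA) were compared between 2 crosses, UAS::abi1-1xJ1721 and UAS::abi1-1xC24, over every gene of the deposited count table. The comparison used 6 of the 24 libraries of the study, 3 per cross. Both crosses were F1 Arabidopsis thaliana plants, and both carried UAS::abi1-1, a transgene that is silent unless an enhancer trap line supplies its activator. C24 is the accession without a driver and is labelled wild type, so its cross held the transgene in its silent state. The J1721 cross held the transgene together with the J1721 driver. The labels do not name the cells in which J1721 is active, and none are assigned here. Seedlings aged 5 days were moved to plates with 1 µM ABA or to mock plates for 8 h, and roots of about 1 cm from 50 to 100 seedlings made up each library. Whether each pool had its own sowing is not stated, so the p-values reflect variation among these pools, which may be technical. Mock libraries of both crosses (3 each) and the libraries of the crosses UAS::abi1-1xJ0571 and UAS:abi1-1xQ0990 (3 with ABA and 3 mock each) served as further comparisons.

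ABA is the hormone by which plants signal water deficit. It binds receptors of the PYR/PYL family, which then inhibit type 2C protein phosphatases (PP2Cs) such as ABI1, and this frees SnRK2 kinases to phosphorylate transcription factors. The abi1-1 form of the phosphatase escapes the receptors and is dominant, so that it blocks the pathway in the cells that make it. Xylem vessels, the water-conducting cells of the root, are formed under NAC transcription factors of the VND family, which act through MYB46 and MYB83 on genes for the secondary wall and for the cell's own death.

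With ABA, 276 of 21315 genes tested differed between the crosses at an adjusted p under 0.05 in edgeR's quasi-likelihood test, which is 1.29% of genes. Of these, 140 (0.657% of genes tested) were higher in J1721 and 136 (0.638%) were lower. The median log2 difference, J1721 minus C24, was 0.92 among the higher genes and -0.83 among the lower ones. A difference of at least 1 on the log2 scale was found for 62 of the higher and 44 of the lower genes. Of the 136 lower genes, 14 belong to a list of secondary wall genes and 7 to a list of VND and xylem regulators. The 3 libraries of one cross did not overlap the 3 of the other for 270 of the 276 genes, while 13.4% of all genes tested had such a gap. The genes were called from these same libraries, so the gap follows from the calls and is no separate support for them.

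**Figure D1:**
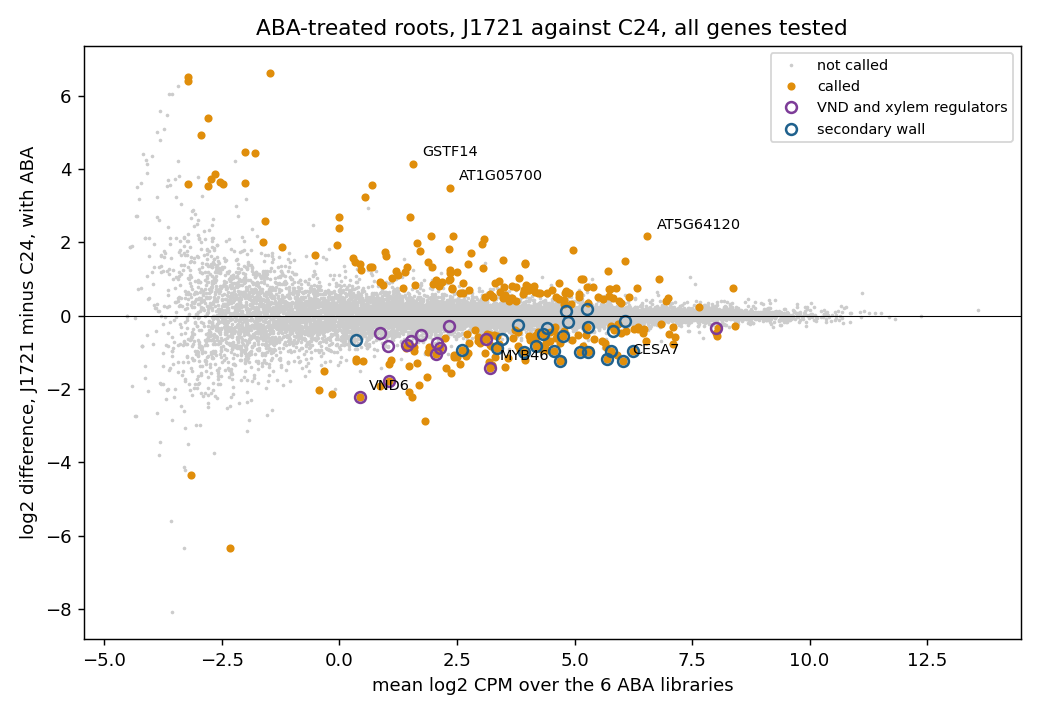
Log2 difference between J1721 and C24 with ABA (vertical axis) against the mean log2 CPM (counts scaled to a common library size) of the 6 ABA libraries (horizontal axis) for 21315 genes. Orange points are the 276 genes called and grey points the rest. Purple and blue rings mark measured members of the lists of VND and xylem regulators and of secondary wall genes, which lie mostly below 0, while GSTF14, AT1G05700 and AT5G64120 stand above.

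The totals of the 6 libraries lay between 38651595 and 61481393 counts. On the first principal component of these libraries, which held 29.3% of their variance, all J1721 libraries lay on one side and all C24 libraries on the other. J1721 library 1 stood apart from its replicates in the ABA-induced phosphatases: HAI1 was at 53.3 CPM there, while J1721 libraries 2 and 3 had 187 and 195 CPM and the C24 libraries had 208, 93.1 and 89.6 CPM. Without that library, 190 genes were called, 84 higher and 106 lower. Without C24 library 2, 177 were called, 82 higher and 95 lower. Among the mock libraries, number 1 of each cross lay apart from its replicates on the first component, at -47.3 in C24 with the other two at 7.24 and 10.2, and at 34.7 in J1721 with the other two at -3.04 and -1.76. The crosses lay on opposite sides of the second mock component, which held 21.7% of the variance. There the C24 libraries were at 4.17, 21.6 and 29.4 and those of J1721 at -9.85, -21.3 and -24.1. Leaving out all mock libraries numbered 1 left 310 genes called with ABA.

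ABI1, the phosphatase gene from which the transgene derives, was measured at 380, 313 and 282 CPM in the C24 libraries with ABA and at 269, 395 and 412 CPM in those of J1721. The ranges overlapped, and the log2 difference was 0.14 ± 0.12 (SE, adjusted p = 0.858). Counts of this gene may hold reads of both the plant's own transcript and the transgene, so the level of the transgene itself was not measured.

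The regulators of vessel formation were lower in J1721. Of 14 measured VND and xylem regulators, 7 were called lower and none higher, and all 14 had a log2 difference below 0, with a median of -0.78 against 0.00 over all genes tested. In bulk roots, fewer vessel cells and less RNA per vessel cell cannot be told apart. VND6 (AT5G62380), a NAC factor for the metaxylem vessel, was measured at 3.75, 2.92 and 2.51 CPM in C24 and at 0.991, 0.264 and 0.626 CPM in J1721. Every J1721 library was below every C24 library, and the level was 4.66-fold lower, a log2 difference of -2.22 ± 0.31 (adjusted p = 0.000104). The locus overlaps AT5G62390 in the reference, and no source used here gives the strand setting of the counting, so the reads of both may be mixed.

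MYB83 (AT3G08500) and MYB46 (AT5G12870) encode the paired MYB factors that act directly below the VND factors. MYB83 was at 3.49, 4.08 and 3.96 CPM in C24 and at 0.672, 1.27 and 1.46 CPM in J1721, with a log2 difference of -1.79 ± 0.26 (adjusted p = 0.000149). MYB46 was at 15.3, 16.2 and 13.9 CPM in C24 and at 6.58, 4.94 and 5.37 CPM in J1721, with a log2 difference of -1.42 ± 0.15 (adjusted p = 1.48e-06). Neither gene showed an overlap between the crosses.

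Of the other VND genes, VND2, VND3, VND4 and VND5 were called lower. VND2 had a log2 difference of -1.06 ± 0.25, VND3 one of -0.88 ± 0.20, VND5 one of -0.81 ± 0.18 and VND4 one of -0.64 ± 0.13, with adjusted p-values of 0.0273, 0.0176, 0.0143 and 0.00573. VND2 was at 9.46 CPM in C24 library 1 against 4.59 and 4.42 CPM in C24 libraries 2 and 3, and at 2.79, 2.83 and 3.26 CPM in J1721. Its log2 difference was -0.61 without C24 library 1 (adjusted p = 0.343), and it also missed the threshold without any 1 of the J1721 libraries. VND3 lost its call without C24 library 2 or without J1721 library 1 or 3, and VND5 without C24 library 3 or J1721 library 1. VND7, a factor for the protoxylem vessel, was at 6.32, 5.26 and 4.60 CPM in C24 and at 2.92, 3.54 and 3.18 CPM in J1721, which did not overlap, but its log2 difference of -0.75 ± 0.19 just missed the threshold (adjusted p = 0.0505). VND1 was at -0.47 ± 0.28 (adjusted p = 0.721). Without J1721 library 1, the members called in the list were VND4, VND6, MYB46 and MYB83, which makes 4 in place of 7. A fit of only the 6 libraries compared also called 4, and VND2, VND3 and VND5 lost their calls there. Among the regulators that act beside the VND factors, XND1, which restrains vessel formation, had a log2 difference of -0.82 (adjusted p = 0.187), and LBD30, a factor that extends VND expression, one of -0.70 (adjusted p = 0.0971).

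**Figure D2:**
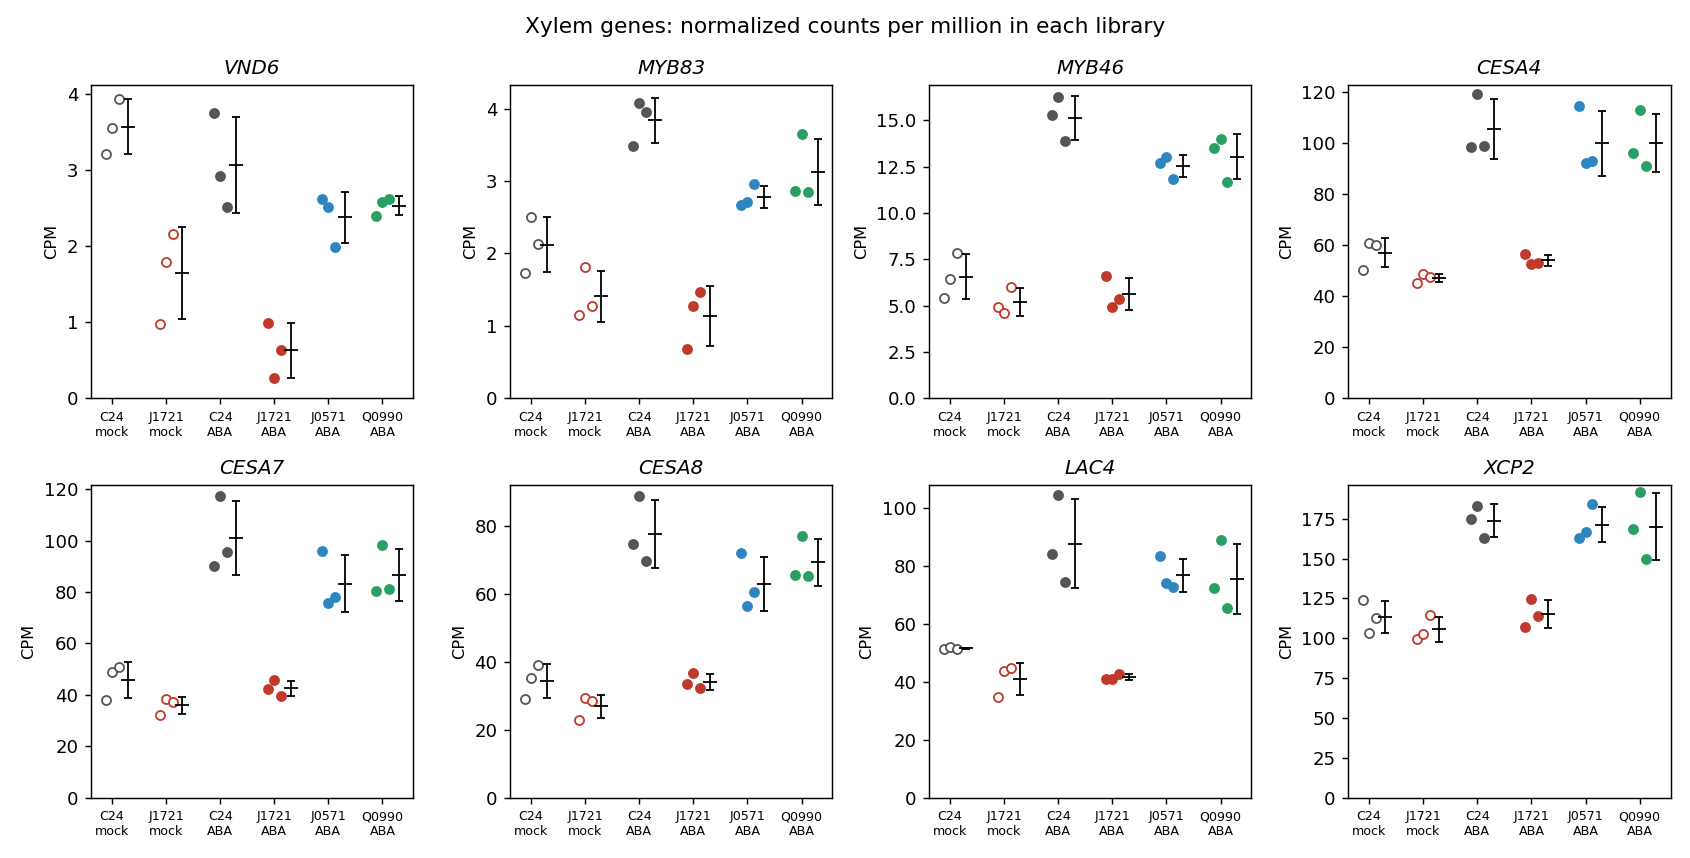
Normalized counts (CPM, linear axes from 0) of 8 xylem genes in each of 3 libraries per group; filled points are ABA libraries, open points mock libraries, and the black marks give the mean and SD over the 3 libraries. In the panels of MYB46, MYB83, CESA4, CESA7 and CESA8 the J1721 ABA libraries lie near the mock libraries, below the ABA libraries of C24, J0571 and Q0990.

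Genes that build the secondary wall formed the largest group among the lower genes of the 30 lists. Theirs was also the list with the most measured members, and the lists were chosen with earlier results of these data known. Of 24 measured, 14 were called lower and none higher, with a median log2 difference of -0.74. Over all genes tested, 0.638% were called lower. The cellulose synthase genes of the secondary wall, CESA4, CESA7 and CESA8, were all called. CESA7 (AT5G17420) was at 90.0, 117 and 95.6 CPM in C24 and at 42.2, 45.7 and 39.6 CPM in J1721, a log2 difference of -1.25 ± 0.12 (adjusted p = 7.72e-07). CESA8 (AT4G18780) was at 74.6, 88.8 and 69.5 CPM in C24 and at 33.4, 36.8 and 32.2 CPM in J1721, a log2 difference of -1.19 ± 0.12 (adjusted p = 7.72e-07). CESA4 (AT5G44030) was at 98.3, 119 and 98.9 CPM in C24 and at 56.5, 52.6 and 52.8 CPM in J1721, a log2 difference of -0.97 ± 0.10 (adjusted p = 9.35e-07). For each of the 3 genes, the lowest C24 library lay well above the highest J1721 library.

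Proteins that help to lay down cellulose were lower as well. COBL4, a GPI-anchored protein of the COBRA family, differed by -1.23 ± 0.12 on the log2 scale, CTL2, a chitinase-like protein, by -0.96 ± 0.12, and FLA11, a fasciclin-like arabinogalactan protein, by -0.998 ± 0.13. Genes for xylan, the main hemicellulose of the vessel wall, followed. IRX9, a xylan synthase component, was at 30.9, 37.6 and 31.0 CPM in C24 and at 16.3, 16.3 and 18.1 CPM in J1721, a log2 difference of -0.98 ± 0.10. TBL29, which acetylates xylan, was at 57.2, 58.3 and 50.4 CPM in C24 and at 29.4, 26.3 and 27.7 CPM in J1721, with a log2 difference of -0.99 ± 0.09 (adjusted p = 3.49e-07). GUX1, which adds glucuronic acid to xylan, differed by -0.99, IRX15 by -0.87, GAUT12 by -0.83, IRX10 by -0.55 and PARVUS by -0.50. SND2, a NAC factor for the secondary wall, differed by -0.94 ± 0.19. PARVUS was called at an adjusted p of 0.0306 and lost its call in 4 of the fits that left out 1 ABA library, namely those without C24 library 1 or 2 or without J1721 library 1 or 2. SND2 lost it without C24 library 2 and without J1721 library 3. The list members MYB52 and MYB54, MYB factors of the secondary wall, had log2 differences of 0.18 and 0.12 and were not called.

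Of 19 measured lignin genes, 3 were called lower and none higher. They were LAC4, LAC17 and LAC11, laccases that polymerize lignin in the wall, with log2 differences of -1.08 ± 0.12, -0.68 ± 0.10 and -0.49 ± 0.08. LAC4 (AT2G38080) was at 84.1, 104 and 74.3 CPM in C24 and at 40.9, 41.0 and 42.8 CPM in J1721, with no overlap. PAL1, the first enzyme of the phenylpropanoid route, differed by -0.09 ± 0.08, C4H, the second, by 0.01 ± 0.07 and HCT, a later one, by 0.00 ± 0.07, and none of these was called. The median over the lignin list was -0.06.

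Genes for the death of the vessel cell had smaller values. Of 8 measured, XCP2 and XCP1, cysteine proteases of the vessel, were called lower. XCP2 was at 175, 183 and 163 CPM in C24 and at 107, 124 and 114 CPM in J1721, a log2 difference of -0.59 ± 0.10 (adjusted p = 0.000517). XCP1 was at 152, 156 and 149 CPM in C24 and at 99.2, 118 and 107 CPM in J1721, a log2 difference of -0.50 ± 0.08 (adjusted p = 0.000889). BFN1, a nuclease of dying cells, differed by -0.66 ± 0.18 (adjusted p = 0.0684), and the list median was -0.31.

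Earlier steps of the vascular programme showed little. Of 18 measured xylem precursor and procambium genes, 2 were called, both lower, with a list median of -0.07. MP, an auxin response factor, differed by -0.53 ± 0.12 (adjusted p = 0.0264). TMO5, a bHLH factor that MP activates, differed by -0.32 ± 0.08 (adjusted p = 0.0434). MP was not called without C24 library 2 or 3 or without J1721 library 3, and TMO5 lost its call in every fit that left out 1 ABA library. None of 6 genes for patterning of the vessel wall and none of 11 phloem genes was called by edgeR. At an unadjusted p under 0.05 the wall patterning list held 2 lower genes and the phloem list 0, and DESeq2 called 1 and 0. Over all genes tested, 8.98% had such a p with ABA, in either direction. Counts at this threshold, here and in the lists below, are to be read beside that share.

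**Figure D3:**
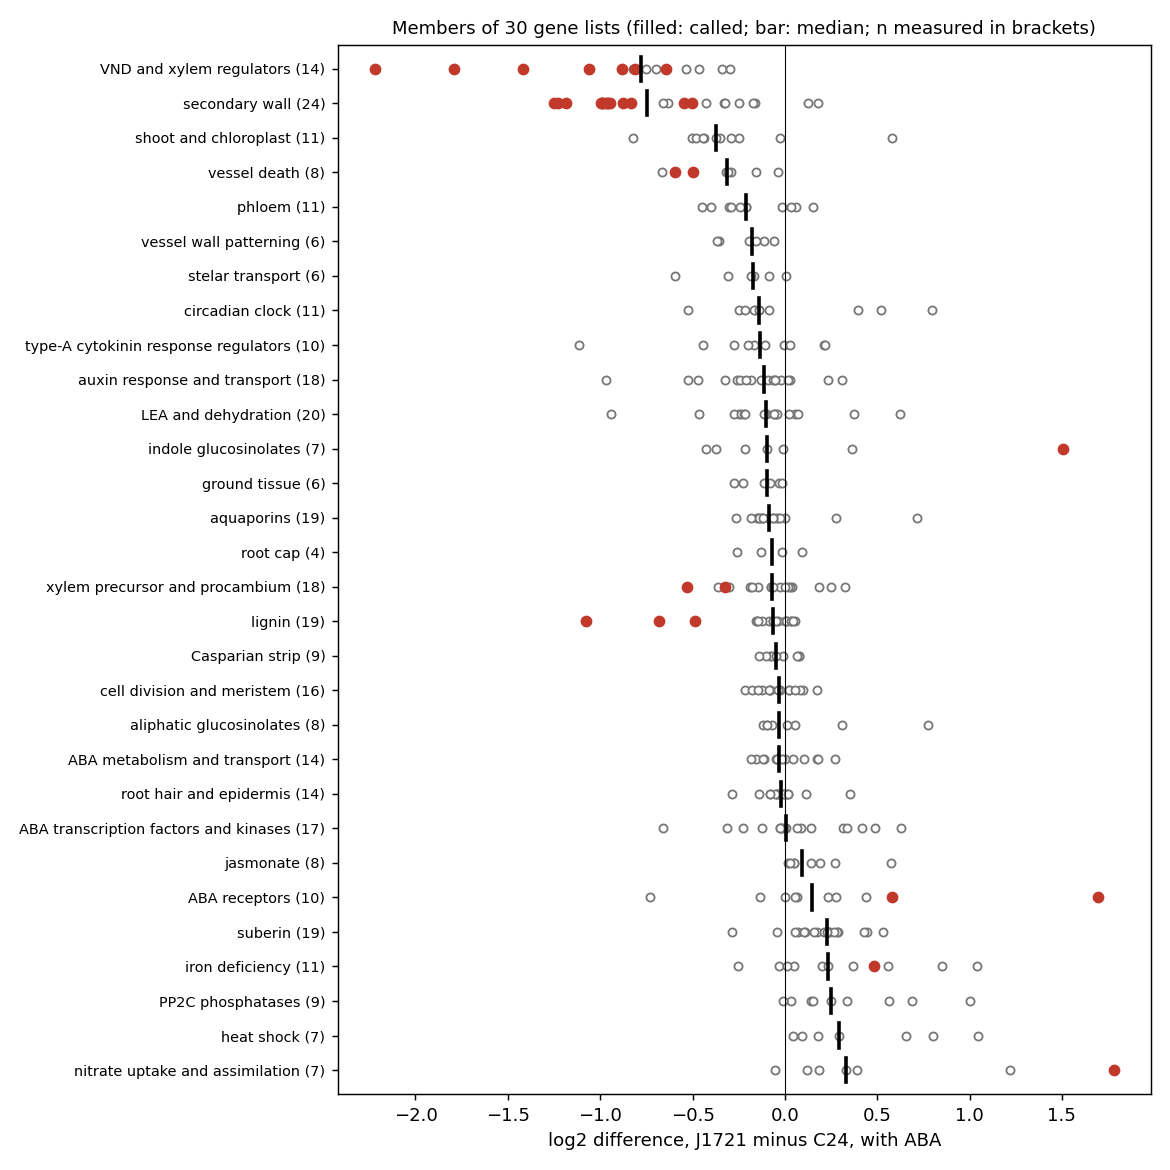
Log2 difference between J1721 and C24 with ABA for each measured member of 30 gene lists. Filled red points are called genes, open points are not called, and the black bar is the list's median; the VND and secondary wall lists have medians of -0.78 and -0.74.

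Other wall genes stood among the 12 largest falls, which also held MYB83 and MYB46. LAC2 and LAC10, laccases outside the lignin list, had log2 differences of -1.57 ± 0.34 and -1.35 ± 0.24. LAC2 was at 9.53, 12.1 and 5.57 CPM in C24 and at 2.89, 2.96 and 3.31 CPM in J1721, and lost its call without C24 library 1 or 2 and without J1721 library 1 or 2. TBL31, of the family of TBL29, differed by -1.33 ± 0.21. The subtilase SBTI1.1 differed by -1.68 ± 0.32, GulLO6, of the gulono-lactone oxidase family, by -1.40 ± 0.14, and the receptor-like kinase gene AT5G48740 by -1.88 ± 0.30. The zinc finger gene AT1G68200 was at 8.68, 7.13 and 7.62 CPM in C24 and at 2.87, 2.91 and 2.89 CPM in J1721, a log2 difference of -1.43 ± 0.20. AT3G48510 and AT5G46115, whose functions the reference does not give, differed by -2.07 ± 0.36 and -1.38 ± 0.25.

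The largest fall that met the naming rule was that of arpc2b (AT2G33385), annotated as actin-related protein C2B. It was at 6.25, 7.15 and 6.08 CPM in C24 and at 1.53, 0.687 and 1.90 CPM in J1721, a log2 difference of -2.23 ± 0.23 (adjusted p = 1.61e-06). In the reference it lies next to RD20, an ABA-induced gene, which had a log2 difference of 0.02 ± 0.30 (adjusted p = 0.998).

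The word laccase stood in the annotation of 17 tested genes, of which 5 were lower and 0 higher, with a median log2 difference of 0.09. This count, like those of peroxidases and leucine-rich repeat kinases below, was chosen after the values were seen and was not tested. Other annotation words were counted too. They include cytochrome P450 (4 higher and 1 lower of 173), disease resistance (1 and 0 of 166) and TRICHOME BIREFRINGENCE-LIKE (0 and 3 of 42). All such counts are to be read beside the shares over all genes tested, 0.657% higher and 0.638% lower. Of the 276 called genes, 58 overlap another gene in the reference, and these include CESA4, CESA7, CESA8, FLA11, GAUT12, VND2, VND5, XCP1, LAC11, LAC17 and MP. Their counts may hold reads of the neighbour. The share of all genes tested with such an overlap was not counted.

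The 250 bases before the annotated gene start were searched on both strands for the tracheary element regulating cis-element, a motif known from vessel genes, in the RefSeq sequence of assembly TAIR10.1. The motif was found for 4 of 136 lower genes (2.94%), 0 of 140 higher genes and 81 of 21266 tested genes with such a window (0.381%). The 4 sites are shown because they belong to the lower genes CESA4, FLA11, XCP1 and AT2G44300, with the motif in capitals and each written 5′ to 3′ on the strand of its gene. Where the motif lies on the opposite strand, as in AT2G44300, the capitals are its reverse complement. The reference is the Columbia accession, while these plants derive from C24 and other parents, so the letters may differ in them.
CESA4 (chr5:17714360-17714389, + strand): tacataataaCTTGAAAGCTActctaagtt
FLA11 (chr5:753841-753871, - strand): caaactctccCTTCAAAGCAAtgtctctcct
XCP1 (chr4:16810397-16810427, + strand): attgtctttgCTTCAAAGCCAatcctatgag
AT2G44300 (chr2:18308704-18308734, - strand): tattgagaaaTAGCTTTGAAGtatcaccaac
CESA4 had its motif closest to the gene start, at 20 bases, followed by XCP1 at 75, FLA11 at 204 and AT2G44300, a lipid-transfer protein gene, at 230. The log2 difference of AT2G44300 was -0.35. One of the AC elements, which are spelled ACCTACC, or with a changed middle ACCAACC, or with a changed end ACCTAAC, stood before 11.8% of the lower genes, 6.43% of the higher genes and 6.20% of all. ACGTG, the core of the ABA response element, stood before 26.5% of the lower, 25.0% of the higher and 23.65% of all genes. These matches are a description of the letters in the window and were not tested.

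Among the higher genes whose crosses did not overlap and whose mean log2 CPM reached 1, GSTF14 and AT1G05700 had the largest differences. The called genes CYP71A12 and AT4G14548, at log2 differences of 3.57 and 3.23, lay below that level, with mean log2 CPM of 0.68 and 0.55. GSTF14 (AT1G49860), a phi-class glutathione S-transferase, was at 0.872, 0.423 and 0.851 CPM in C24 and at 17.2, 11.5 and 9.08 CPM in J1721. It was 17.7-fold higher, a log2 difference of 4.15 ± 0.31 (adjusted p = 3.01e-08). The receptor-like kinase gene AT1G05700 was at 1.25, 1.47 and 1.91 CPM in C24 and at 24.5, 11.8 and 15.4 CPM in J1721, a log2 difference of 3.49 ± 0.29 (adjusted p = 9.2e-08). In both genes all J1721 libraries lay far above all C24 libraries, and library 1 of J1721 was the highest.

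Other leucine-rich repeat kinases were higher as well. AT5G49770 was at 1.34, 0.780 and 1.29 CPM in C24 and at 10.7, 5.07 and 6.02 CPM in J1721 (log2 difference 2.69 ± 0.39). AT5G59680 was at 4.72, 3.43 and 4.44 CPM in C24 and at 24.1, 14.3 and 14.4 CPM in J1721 (log2 difference 2.08 ± 0.21). Of 158 tested genes annotated as leucine-rich repeat kinases, 11 were higher and 4 lower, and their median log2 difference was -0.01.

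Class III peroxidases, which act on hydrogen peroxide in the cell wall, were a further group. AT5G64120 was at 45.4, 36.1 and 54.6 CPM in C24 and at 290, 172 and 152 CPM in J1721, a log2 difference of 2.18 ± 0.27 (adjusted p = 2.18e-05). AT5G39580 was at 1.46, 1.63 and 2.26 CPM in C24 and at 6.52, 4.83 and 6.70 CPM in J1721, a log2 difference of 1.76 ± 0.20. AT1G71695 was at 9.88, 9.76 and 8.56 CPM in C24 and at 22.2, 26.0 and 26.7 CPM in J1721, a log2 difference of 1.41 ± 0.10 (adjusted p = 1.12e-08). Of 91 tested genes with the word peroxidase in their annotation, not limited to class III, 7 were higher and 2 lower, with a median of 0.01. Peroxidases are a large family, and reads shared by near-identical members may not have been told apart.

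The other large rises were of varied kinds. The C1 domain gene AT5G40590 was at 1.98, 2.3 and 3.41 CPM in C24 and at 14.9, 8.19 and 11.2 CPM in J1721 (log2 difference 2.17 ± 0.19), and the aspartyl protease gene AT3G51350 was at 4.90, 2.63 and 5.59 CPM against 22.7, 10.7 and 16.9 CPM (1.95 ± 0.22). The oxygenase gene AT3G12900 differed by 2.17 ± 0.46 and lost its call without C24 library 1 or 2 and without J1721 library 2. AT1G27020, of no given function, was at 1.2, 1.05 and 2.83 CPM in C24 and at 9.79, 4.7 and 5.14 CPM in J1721 (log2 difference 1.98 ± 0.30). The germin-like protein gene GLP9 was at 3.54, 2.18 and 2.39 CPM in C24 and at 12.3, 7.71 and 8.45 CPM in J1721 (log2 difference 1.82 ± 0.22). NRT2.1, a high-affinity nitrate transporter gene, was at 17.42, 12.5 and 22.7 CPM in C24 and at 83.8, 43.8 and 52.8 CPM in J1721. Its log2 difference of 1.78 ± 0.34 was called (adjusted p = 0.00417), and was 1.59 without C24 library 2 (adjusted p = 0.0534). It was the 1 called of 7 measured genes of nitrate uptake and assimilation, whose median was 0.33.

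**Figure D4:**
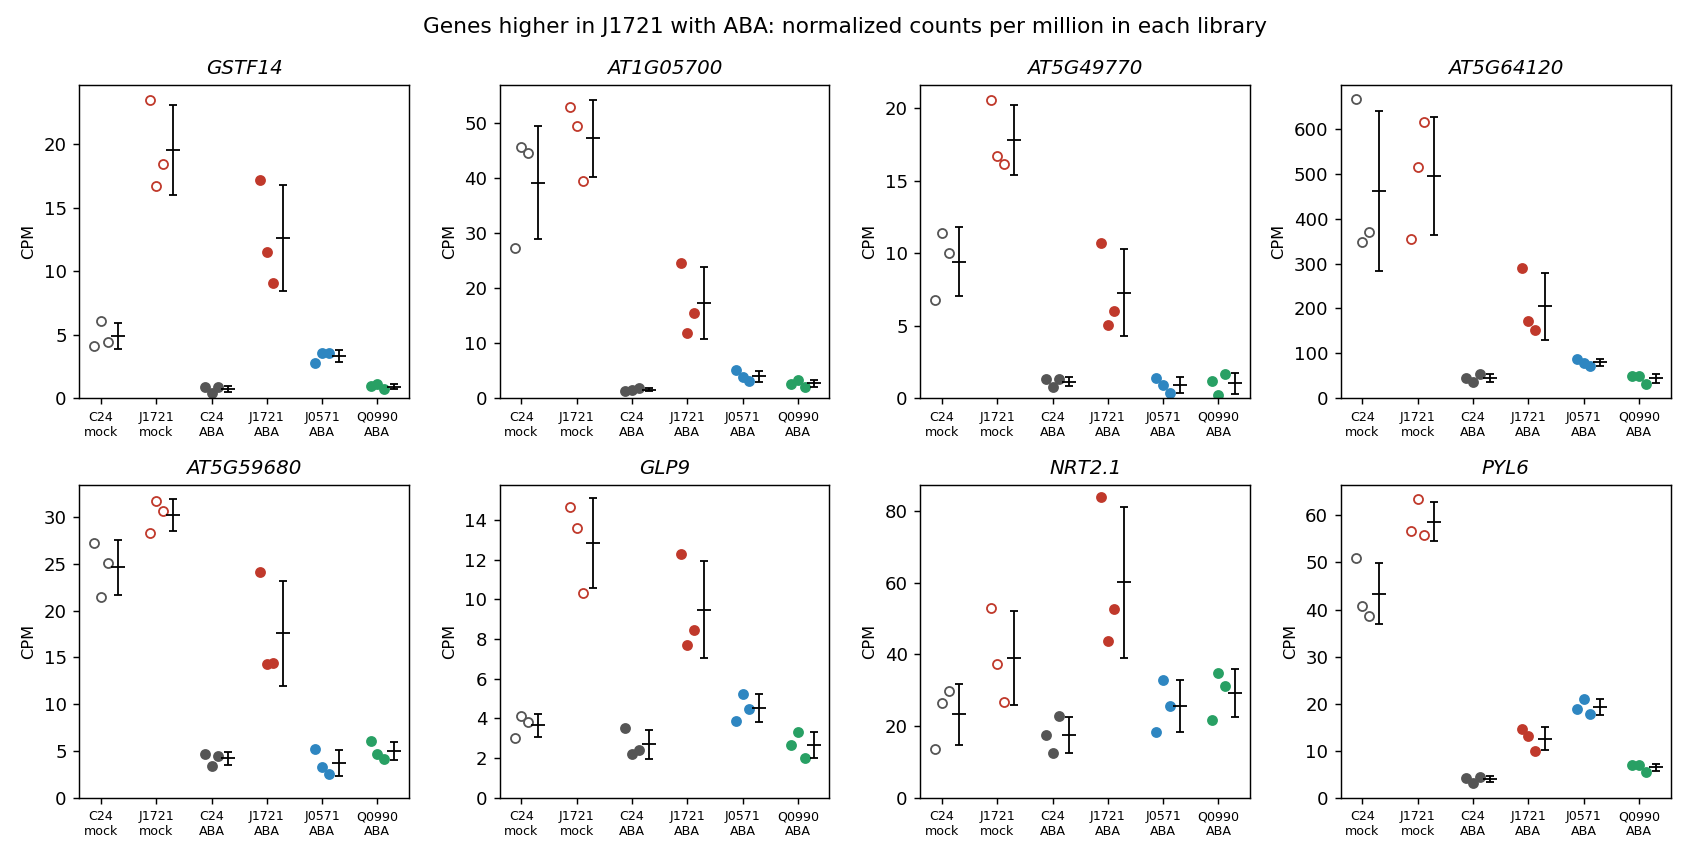
Normalized counts (CPM, linear axes from 0) of 8 genes called higher in J1721 with ABA, in each of 3 libraries per group; filled points are ABA libraries, open points mock libraries, and black marks give the mean and SD. Except for NRT2.1, the C24 ABA libraries lie below the C24 mock libraries or, for GLP9, near them, and the J1721 ABA libraries lie above the C24 ABA libraries in every panel.

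Members of the ABA pathway itself showed few differences. Of 10 measured receptor genes, PYL6 and PYL4 were called higher. PYL6 was at 4.22, 3.16 and 4.35 CPM in C24 and at 14.6, 13.1 and 10.04 CPM in J1721, a log2 difference of 1.69 ± 0.14 (adjusted p = 9.2e-08). PYL4 was at 24.3, 32.2 and 28.5 CPM in C24 and at 53.5, 37.5 and 35.7 CPM in J1721, a log2 difference of 0.58 ± 0.13 (adjusted p = 0.0189), and was not called without J1721 library 1 or without C24 library 1 or 3. PYR1 differed by 0.23 ± 0.07 (adjusted p = 0.141) and PYL8 by 0.05 ± 0.08 (adjusted p = 0.951).

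None of the 9 PP2C genes was called by edgeR or by DESeq2, and 2 had an unadjusted p under 0.05, both higher. Their median log2 difference was 0.25, and leaving out 1 ABA library gave medians from 0.04, without J1721 library 3, to 0.55, without J1721 library 1. Of these fits, a member was called in the last alone, where HAI3 was called higher at a log2 difference of 1.48 (adjusted p = 0.0244). HAI3 was at 52.7, 31.3 and 20.4 CPM in C24 and at 16.0, 85.9 and 108 CPM in J1721, a wide spread in J1721 that covered the C24 range. All 9 were raised by ABA in each of these crosses.

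The ABA-induced protective genes did not differ detectably. None of 20 measured LEA and dehydration genes was called by edgeR, 3 had an unadjusted p under 0.05, all lower, and DESeq2 called 1, P5CS1, lower. LTI78, a desiccation-responsive gene, was at 636, 515 and 555 CPM in C24 and at 555, 539 and 497 CPM in J1721, and RAB18, a dehydrin, at 35.8, 38.3 and 36.7 CPM in C24 and at 26.4, 43.6 and 33.4 CPM in J1721. The list median was -0.10. None of 17 ABA transcription factors and kinases was called by edgeR or DESeq2, 1 had an unadjusted p under 0.05, and their median was 0.00.

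Of 19 suberin genes, which form the lipid barrier of the endodermis, none was called by edgeR, 6 had an unadjusted p under 0.05, all higher, and DESeq2 called 1, ABCG6, higher. The median was 0.23, or 0.13 without C24 library 3. GPAT5, an acyltransferase of suberin synthesis, was at 216, 212 and 168 CPM in C24 and at 242, 252 and 235 CPM in J1721 (log2 difference 0.29 ± 0.10, adjusted p = 0.281). Of 11 iron deficiency genes, 1 was called, FIT, the main regulator of iron uptake in roots. It was higher by 0.49 ± 0.12 (adjusted p = 0.0329) but lost its call without C24 library 1 or 2 and without J1721 library 1 or 3. The list median was 0.23 with ABA, with 9 of 11 above 0, and 0.37 in mock libraries, with 11 of 11 above 0. CYP81F2, which modifies indole glucosinolates, was higher by 1.5 ± 0.23 (adjusted p = 0.000354). It was the 1 called of 7 indole glucosinolate genes, whose median was -0.10, with 5 of 7 below 0 and 3 lower at an unadjusted p under 0.05.

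The labelled tissue was checked with markers of other cells. The summed level of 7 xylem vessel markers was 594 to 686 CPM in C24 with ABA and 348 to 386 CPM in J1721 with ABA. In mock libraries it was 346 to 373 CPM in C24 and 287 to 331 CPM in J1721. The markers were VND7, MYB46, CESA4, CESA7, CESA8, XCP1 and XCP2, of which 6 are called lower above. Their sum with ABA therefore restates those calls and is no separate check. The sum of 4 endodermis markers was 230 to 244 CPM in C24 and 224 to 237 CPM in J1721, and that of 4 root cap markers 12.9 to 16.4 and 13.8 to 15.3 CPM. The sum of 4 phloem markers was 53.2 to 61.0 CPM in C24 and 46.0 to 55.8 CPM in J1721, with overlap. The sum of 3 markers of suberized endodermis was 1423 to 1687 CPM in C24 and 1740 to 1833 CPM in J1721, without overlap, and in mock libraries 592 to 669 CPM in C24 and 626 to 642 CPM in J1721. The sum of 4 root hair markers was 406 to 433 CPM in C24 and 355 to 471 CPM in J1721, with overlap. In mock libraries it was 259 to 301 CPM in C24 and 315 to 374 CPM in J1721, without overlap. Shoot markers (3 measured of 4) were at 9.30 to 13.4 CPM in C24 and 7.31 to 12.2 CPM in J1721. No list of markers was at 0. The shoot and chloroplast list had a median log2 difference of -0.37, with 0 of 11 genes called by edgeR or DESeq2 and 5 lower at an unadjusted p under 0.05. The part of these cell types in the results was not tested.

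The mock libraries answer whether the crosses already differed without ABA. There, 9 genes were called (0.0422% of those tested), 6 higher (0.0281%) and 3 lower (0.0141%) in J1721. An unadjusted p under 0.05 was found for 1194 genes (5.6%) in mock, against 1915 (8.98%) with ABA. The count of called genes was 5 without J1721 mock library 1 and 5 without C24 mock library 3, and DESeq2 called 40. All 9 genes called by edgeR in mock were also called with ABA in the same direction. GLP9 had a log2 difference of 1.81 in mock and 1.82 with ABA, and the noncoding gene AT4G14548 had 2.96 in mock and 3.23 with ABA. AT4G14548 was at 0.376, 0.433 and 0.763 CPM in C24 mock libraries and at 5.52, 2.74 and 4.08 CPM in those of J1721, and it was at 3.89, 3.60 and 3.82 CPM in Q0990 with ABA. The other 4 higher genes were GSTF14, AT1G71695, AT2G09795 and the methyltransferase gene AT1G73600. The 3 lower genes were AT2G46300, AT5G60650 and AT1G32860, with mock log2 differences of -1.97, -0.89 and -0.46. With ABA, AT1G32860 differed by -0.30 and was not called in any fit that left out 1 ABA library.

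The direction was mostly shared between the treatments, in libraries that are separate. Of the 140 genes higher with ABA, 128 (91.4%) had a mock difference above 0, against 48.8% of all genes tested, and of the 136 lower genes, 124 (91.2%) had one below 0, against 51.1% of all. The mock differences were smaller, with medians of 0.27 and -0.21. The genes were chosen by their difference with ABA, so a smaller one in mock is partly built in. VND6 was at 3.21, 3.55 and 3.93 CPM in C24 mock libraries and at 0.975, 1.79 and 2.16 CPM in J1721 ones, a difference of -1.11 on the log2 scale whose libraries did not overlap, as for 10.7% of all genes, but which was not called (adjusted p = 0.277). None of the VND and xylem regulators was called in mock by edgeR, 6 were lower at an unadjusted p under 0.05, and DESeq2 called 1. None of the 24 secondary wall genes was called by edgeR or DESeq2, and 6 were lower at an unadjusted p under 0.05. Over all genes tested, 5.6% had such a p in mock, in either direction. Other lists held such genes too. Of 14 root hair and epidermis genes, 6 were higher at that p, and of 11 iron deficiency genes 3 were. DESeq2 called 0 and 1 of these lists in mock.

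**Figure D5:**
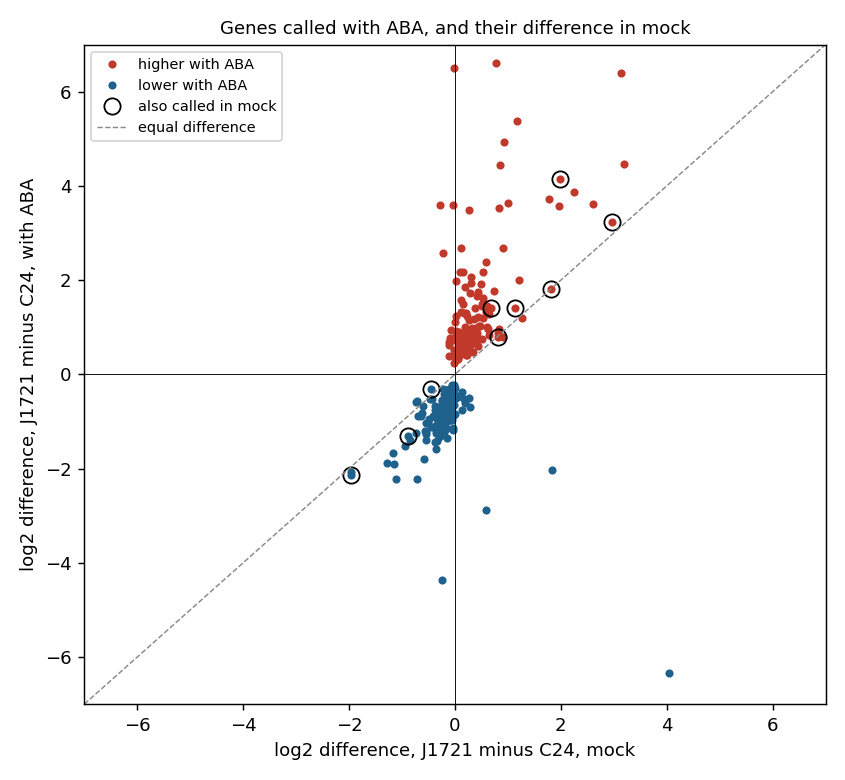
Log2 difference between J1721 and C24 with ABA (vertical axis) against the same difference in mock libraries (horizontal axis) for the 276 genes called with ABA; red points are higher and blue points lower with ABA, black rings mark the 9 genes also called in mock, and the dashed line marks equal differences. Most points lie in the quadrants of shared sign and farther from 0 on the vertical axis. The genes were chosen by their value on the vertical axis, so larger values there are partly built in.

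Whether the response to ABA differed between the crosses was tested as an interaction, which called 36 genes (0.169%), 16 more positive (0.0751%) and 20 more negative (0.0938%) in J1721. That test shares the ABA libraries with the comparison above. MYB46 rose in C24 by 1.2 on the log2 scale and was at 0.13 in J1721, so that the response differed by -1.08 ± 0.21 (adjusted p = 0.0272). Of the secondary wall list, 7 of 24 genes were called in the interaction, all negative, but this rested on single libraries: none of the list was called without C24 ABA library 2 or without J1721 mock library 2, and 1 was called without J1721 ABA library 1, without C24 mock library 1 or without J1721 mock library 3. MYB46 was at -1.02 without C24 ABA library 2 (adjusted p = 0.115). CESA7 responded by 1.14 in C24 and 0.24 in J1721, a difference of -0.90 ± 0.17 (adjusted p = 0.0227), which was -0.78 without C24 ABA library 2 (adjusted p = 0.114). VND6 did not pass this test, with a difference of -1.11 (adjusted p = 0.839). AT1G05700 fell with ABA in C24 by 4.66 on the log2 scale, from 27.2, 45.5 and 44.5 CPM, and by 1.44 in J1721, from 52.9, 49.4 and 39.4 CPM. Its response differed by 3.22 ± 0.36 (adjusted p = 0.000139). PYL6 fell by 3.47 in C24 and by 2.21 in J1721, and the responses differed by 1.26 ± 0.18 (adjusted p = 0.00366). The count of 36 rested on single libraries: it was 8 without C24 ABA library 2, 17 and 22 without J1721 ABA library 1 or 2, 13 and 19 without C24 mock library 1 or 3, and 22, 12 and 11 without J1721 mock library 1, 2 or 3. Without all mock libraries numbered 1 it was 10.

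The ABA response was also measured in the J0571 and Q0990 crosses, which share no library with the main comparison. Over both, 8414 genes were called (39.47%), 21.23% raised and 18.25% lowered by ABA. Of the 140 genes higher in J1721, 119 (85.0%) were lowered by ABA in those crosses, 3 were raised and 18 were not called. Of the 136 genes lower in J1721, 109 (80.1%) were raised by ABA there, 5 were lowered and 22 were not called. NRT2.1 and VND6 were among those without a called response, at 0.11 and -0.09 on the log2 scale. GUX1 was raised by 1.19, IRX15 by 1.09 and MYB46 by 0.95 in those crosses, and AT1G27020, AT5G64120 and AT5G49770 fell by 3.29, 3.06 and 3.55.

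Levels of xylem genes in the other driver crosses with ABA are given beside these. The VND and xylem regulators had a median log2 difference from C24 of -0.27 in J0571, with 13 of 14 below 0, and of -0.28 in Q0990, with 14 of 14 below 0. The secondary wall list had medians of -0.09 in J0571, with 20 of 24 below 0, and of -0.17 in Q0990, with 23 of 24 below 0. These values share the C24 libraries with the -0.78 and -0.74 of J1721. MYB46 was at 12.7, 13 and 11.9 CPM in J0571 and at 13.5, 14.0 and 11.7 CPM in Q0990, above every J1721 library. VND6 was at 2.62, 2.51 and 1.99 CPM in J0571 and at 2.39, 2.58 and 2.62 CPM in Q0990. Against the mean of both crosses, J1721 had 340 genes called (1.6%), 179 higher (0.84%) and 161 lower (0.755%), or 203 in all without J1721 library 1. This comparison shares the J1721 libraries with the one against C24. MYB46 differed there by -1.17 (adjusted p = 5.05e-06), VND6 by -1.90 (adjusted p = 0.000237), MYB83 by -1.41 (adjusted p = 0.000863) and CESA7 by -0.998 (adjusted p = 3.05e-06). Of the secondary wall list 14 of 24 genes were called lower, and of the VND and xylem regulators 5 of 14.

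Some of the higher genes were not particular to J1721. PYL6 was at 18.9, 21.1 and 17.8 CPM in J0571 with ABA, above all J1721 libraries, and J1721 did not differ from the mean of J0571 and Q0990 beyond the test (log2 difference 0.19, adjusted p = 0.686). The noncoding gene AT2G09795 was at 10.6, 9.40 and 10.8 CPM in C24 with ABA, 15.8, 16.1 and 21.4 CPM in J1721, 18.18, 24 and 20.5 CPM in J0571 and 20.2, 19.5 and 19.6 CPM in Q0990. GSTF14 was at 2.78, 3.58 and 3.56 CPM in J0571 and at 0.946, 1.07 and 0.708 CPM in Q0990, below every J1721 library. J1721 differed from the mean of both crosses by 2.87 (adjusted p = 2.01e-08), but the J0571 libraries also lay above every C24 library with ABA. AT5G59680 differed from the mean of J0571 and Q0990 by 2.06 (adjusted p = 5.29e-08) and AT1G71695 by 1.07 (adjusted p = 1.18e-08).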

How the data were processed

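The deposited table, made by the authors, gives raw counts per gene for 24 libraries. HISAT2 and HTSeq are the tools listed in the submitters' processing notes, while the sources used here give no version, build, annotation or strand setting. Per the labels' protocols, NEBNext Ultra libraries were sequenced in pairs, with a read length of 150. Of 34218 features, 32548 were matched to RefSeq loci (TAIR10.1), which served for names, overlaps and motif windows. All 24 count columns were used.

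Library sizes were scaled by the TMM method and counts fitted with edgeR 4.0.16 (limma 3.58.1, R 4.3.3) as 8 group means over 24 libraries, after filterByExpr, which left 21315 genes. A gene was called at a Benjamini-Hochberg adjusted p under 0.05 in the quasi-likelihood test. Errors of log2 differences are standard errors of the fit. CPM are on normalized library sizes, and are not comparable between genes, since they are not divided by length. Totals of all 24 libraries ran from 38542817 to 61555387 counts. Replicate pairs differed by more than counting noise.

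Named genes were ABI1, members of 30 lists, and the 12 largest rises and falls. Those rises and falls were taken among called genes whose mean log2 CPM reached 1, without overlap between the crosses. Of 383 written list members, 361 were measured and 17 lay below the filter. The other 5 were dropped because the reference gave the name neither as a symbol nor as a synonym of the locus. The members, lists and rule were chosen with earlier results of these data known. The genes named from the mock, interaction and product counts were taken from those results. DESeq2 1.42.0, its size factors, other filters, a stricter threshold, a replicate block and leaving out libraries were tried. The code was tested on simulated data.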

Additional observations from a re-analysis of the deposited data

Results flagged for a closer look

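The ABA response of 18 named genes differed between J1721 and C24 by the interaction test of edgeR, each at an adjusted p under 0.05 over all genes. The values are the response in J1721 minus that in C24, on the log2 scale. Of the xylem genes, MYB46 differed by -1.08, CTL2 by -0.91, CESA7 by -0.90, COBL4 by -0.90, CESA8 by -0.83, IRX9 by -0.76, TBL29 by -0.73 and CESA4 by -0.69. All of these were raised by ABA in C24, by 0.63 to 1.2, and had values of -0.10 to 0.34 in J1721. All 8 kept their sign in every fit run. None of the 8 was called without C24 ABA library 2 or without all mock libraries numbered 1, and 1 was called without C24 mock library 1, without J1721 mock library 2 or without J1721 mock library 3.

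The other 10 genes had smaller falls in J1721 than in C24 or none. AT1G71695 differed by 0.73, PYL6 by 1.26, AT5G39580 by 1.32, AT5G40590 by 1.63, AT3G51350 by 1.64, AT5G59680 by 1.78, AT1G27020 by 1.95, AT5G64120 by 2.07, GSTF14 by 2.15 and AT1G05700 by 3.22. AT5G39580 had a value of 0.13 in J1721 against -1.19 in C24. All 10 kept their sign in every fit run, and 4 of them, PYL6, AT5G40590, AT5G59680 and AT1G05700, were called without C24 ABA library 2. Without ABA library 1 of J1721, whose values with ABA are given in the report, 5 of the 10 and 2 of the 8 xylem genes were called.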

How the results depend on the processing

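The list medians and named genes recomputed kept their sign in the alternatives run, but the balance of calls moved: with ABA it was 140 higher and 136 lower, and 82 and 95 without C24 library 2; in the interaction 16 and 20, and 6 and 2 without C24 ABA library 2; against J0571 and Q0990 179 and 161, and 80 and 123 without J1721 library 1. With ABA, the 276 calls became 274 with DESeq2's size factors, 293 without a filter, 205 with only the 6 libraries and 162 at an adjusted p under 0.01. With only the 6 libraries, VND2, VND3, VND5, TMO5, PARVUS, PYL4, FIT and AT1G32860 lost their calls. DESeq2 called 412, which held all 276. Leaving out 1 library gave 177 to 276 calls for J1721 minus C24 with ABA, 5 to 9 in mock, 8 to 34 for the interaction, 203 to 343 against J0571 and Q0990, and 7777 to 8301 for the response of those crosses. DESeq2 called 40 genes in mock and 63 in the interaction. Leaving out all mock libraries numbered 1, an alternative chosen after seeing the data, gave 5 in mock and 10 in the interaction. Replicate numbers did not pair the libraries: deviations of same-numbered ABA libraries correlated at -0.06, 0.13 and -0.02. With a replicate block, the calls were 268 with ABA, 11 in mock, 35 in the interaction, 326 against the other crosses and 8284 in their response. Of single genes, 69 of their fits lost the call and 799 did not change. Low counts limit VND6, MYB83 and the other genes of few CPM.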

Other observations

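Among the called genes outside the lists, several act in the supply of xylan and other wall sugars, and these were chosen after their values were seen. UXS3 and UXS6, which make UDP-xylose, were lower in J1721 with ABA by -0.48 ± 0.05 and -0.75 ± 0.09 on the log2 scale (adjusted p = 5.09e-06 and 6.28e-06). UXS3 was at 305, 312 and 293 CPM in C24 and at 213, 216 and 224 CPM in J1721. UGD2 and UGD3, which make UDP-glucuronic acid, differed by -0.29 and -0.33. RWA1 and RWA3, proteins of wall acetylation, differed by -0.42 and -0.41, and TBL33, a relative of TBL29, by -0.95. IRX14-L, a xylan synthase component, differed by -0.81. RAC2, a ROP GTPase gene, was at 13, 16.1 and 13.1 CPM in C24 and at 5.90, 6.10 and 5.53 CPM in J1721 (log2 difference -1.27 ± 0.15), and the ROP-interacting RIC4 and RIC2 differed by -1.13 and -0.70, while none of the 6 genes of the wall patterning list was called.

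A few defence genes outside the lists were higher in J1721 with a wide spread. CYP71A12, a cytochrome P450 of indole metabolism, was at 0.165, 0.758 and 1.08 CPM in C24 and at 18.7, 3.65 and 1.28 CPM in J1721, most of it in J1721 library 1. IGMT2, an indole glucosinolate methyltransferase, was at 3.56, 3.83 and 4.26 CPM in C24 and at 12.9, 5.41 and 7.72 CPM in J1721 (log2 difference 1.18 ± 0.23). The nitrogen transporter genes AMT1;3 and NAXT1 were higher by 0.41 ± 0.09 and 0.51 ± 0.12.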
